A study of Eleusine coracana with 4 samples.

Results

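HSP70 chaperones of finger millet (Eleusine coracana) leaves were followed through 10 chosen rice loci of the family, among the 55986 loci that reads were counted for. Below, the family, its sum and its shares mean these 10 loci only, and other HSP70 loci were not included. The loci were chosen by their identifiers, which name MSU rice loci of the HSP70 family, and by the cell compartment of the rice protein. That rule uses no measured value, but the family was taken up with earlier results of these data known. There were 5 cytosolic loci (LOC_Os03g16860, LOC_Os01g62290, LOC_Os11g47760, LOC_Os05g38530 and LOC_Os03g60620), 1 locus for BiP of the endoplasmic reticulum (LOC_Os02g02410), 2 plastid loci (LOC_Os05g23740 and LOC_Os12g14070) and 2 mitochondrial loci (LOC_Os02g53420 and LOC_Os09g31486). All 10 were found in each of the 4 tables. The compartments are those of rice and were not measured in these leaves.

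HSP70 proteins bind exposed hydrophobic stretches of other proteins, using ATP to hold and release them, and so keep new, transported or damaged proteins from aggregating. J-domain proteins start the ATP cycle and nucleotide exchange factors end it. Cytosolic members serve protein synthesis and the delivery of precursors to organelles, and plants carry both constitutive and stress-induced forms. BiP retains and folds proteins that enter the secretory pathway and is a marker of the unfolded protein response. Plastid and mitochondrial members help to draw precursors across the organelle membranes and to fold them inside.

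The libraries came from the genotypes CO12 and Trichy 1, each grown for 20 days. Control pots were kept well watered. Salt-treated pots received NaCl to 300 mM from day 20, when plants had 4 leaves, and the youngest expanded, undamaged leaves by the shoot tip were taken. The labels give no time between the start of salt and harvest, do not say how many plants went into a library, and do not say which genotype is the tolerant one of the study title.

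With 1 library for each of the 4 groups, the comparisons of 2 libraries have no replicate check and no p-value is given for them. The libraries held 1831353 (CO12 salt) to 6272817 (CO12 control) total gene reads. The 20 most abundant loci took 95.5% to 96.1% of them, which left 75465 to 246448 reads for all others. Gene names do not accompany the identifiers, so leaf markers were not checked and no co-chaperone, HSP90 or other HSP70 locus is named. All intervals below are 95% intervals that cover counting error only, because PCR copies are counted as reads and plants were not sampled repeatedly.

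Scaled to total reads, the HSP70 loci together were higher under salt in CO12, a direction that turned with TMM factors over all loci, and the BiP locus stood furthest out. In Trichy 1 they were at 0.885 times the control level. There the counting interval lay below equality for 1 of 7 loci with at least 20 reads in either library, the cytosolic LOC_Os03g16860. The same held for 33% of all 727 such loci. The 10 loci held 776 and 351 reads in the control and salt libraries of CO12, and 638 and 406 in those of Trichy 1. As reads per 1000000 total gene reads (RPM), with the libraries in that order throughout, these were 123.7 (115 to 133), 191.7 (172 to 213), 190.6 (176 to 206) and 168.7 (153 to 186). CO12 control thus lay below the other libraries, whose intervals overlap one another. Outside the 20 most abundant loci, the family took 3149, 4651, 4212 and 4066 of every 1000000 reads, in the same order of libraries, and CO12 control was again the lowest. With TMM factors over all loci it was not the lowest. The log2 ratio of the family sum in CO12 salt against CO12 control was then -0.13.

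In RPM, CO12 control was also the lowest library for 6 of the 10 loci. The share of all loci lowest there was not counted, so the 6 are not a trait of the family. CO12 control was the deepest library by total reads. Both CO12 salt against control and the genotypes without salt use it, so these results are not independent of each other. The part of that 1 library in both results was not tested.

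**Figure D1:**
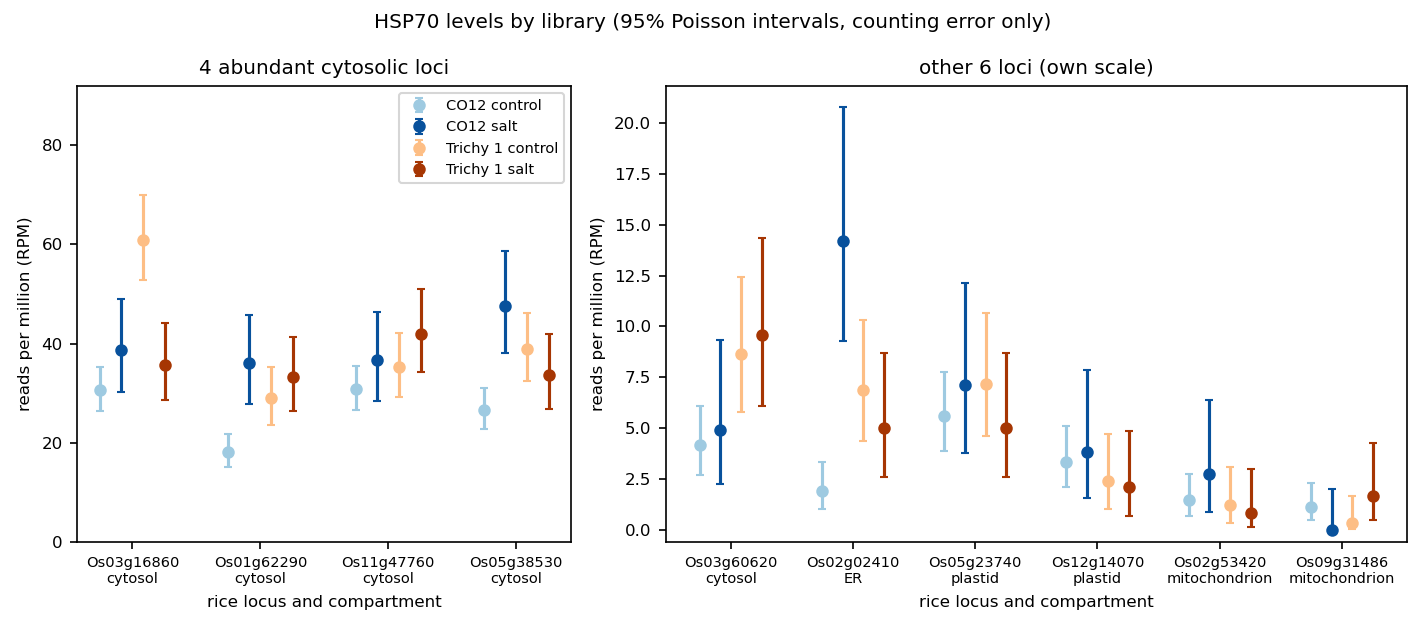
RPM (y axis) of each HSP70 locus (x axis) in the 4 libraries, with the 4 abundant cytosolic loci on the left and the other 6 on the right on their own scale; bars are 95% Poisson intervals of 1 library each. Trichy 1 control stands highest for LOC_Os03g16860 at 60.9 RPM, CO12 salt stands highest for the BiP locus LOC_Os02g02410 at 14.2 RPM, and CO12 control is the lowest library for 6 of the 10 loci. The share of all loci lowest there was not counted.

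The cytosolic loci carried most of the signal. LOC_Os03g16860 (chromosome 3 by its identifier, 2925 bp as deposited) had 192 and 71 reads without and with salt in CO12, and 204 and 86 in Trichy 1. Its levels were 30.6, 38.8, 60.9 and 35.7 RPM. Trichy 1 control stood above the other libraries, with an interval of 52.9 to 69.9 that overlaps none of theirs. LOC_Os05g38530 (chromosome 5, 3225 bp) had 167, 87, 130 and 81 reads in the same order, or 26.6, 47.5, 38.8 and 33.7 RPM. Here CO12 salt was the highest library and CO12 control the lowest.

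LOC_Os01g62290 (chromosome 1, 3805 bp) had 114, 66, 97 and 80 reads, or 18.2, 36.0, 29.0 and 33.2 RPM. CO12 control was the lowest library, and its interval, 15.0 to 21.8, lay below the intervals of the other 3. LOC_Os11g47760 (chromosome 11, 4303 bp) was the most even of these, with 193, 67, 118 and 101 reads, or 30.8, 36.6, 35.3 and 42.0 RPM. The 4 intervals overlap one another, and CO12 control and Trichy 1 salt lie furthest apart. The remaining cytosolic locus, LOC_Os03g60620 (chromosome 3, 4622 bp), was far less abundant, with 26, 9, 29 and 23 reads, or 4.14, 4.91, 8.66 and 9.56 RPM. Both Trichy 1 libraries were above both CO12 libraries for this locus, with overlapping intervals.

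The BiP locus LOC_Os02g02410 (chromosome 2, 3956 bp) had 12 reads without salt and 26 with salt in CO12, and 23 and 12 in Trichy 1. That is 1.91 (0.988 to 3.34), 14.2 (9.27 to 20.8), 6.87 (4.36 to 10.3) and 4.99 (2.58 to 8.71) RPM. The interval of CO12 salt overlaps that of Trichy 1 control and lies above those of the other libraries, while CO12 control lies below both Trichy 1 control and CO12 salt. Of these 73 reads, 71 matched 1 place only.

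The plastid loci were low and showed no separation between libraries. LOC_Os05g23740 (chromosome 5, 5392 bp) had 35, 13, 24 and 12 reads, or 5.58, 7.10, 7.17 and 4.99 RPM. LOC_Os12g14070 (chromosome 12, 5793 bp) had 21, 7, 8 and 5 reads, or 3.35, 3.82, 2.39 and 2.08 RPM. The intervals of the 4 libraries overlap one another for each of these loci.

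The mitochondrial loci had the fewest reads of the family. LOC_Os02g53420 (chromosome 2, 4440 bp) had 9, 5, 4 and 2 reads, and LOC_Os09g31486 (chromosome 9, 3215 bp) had 7, 0, 1 and 4. The 0 reads of LOC_Os09g31486 in CO12 salt allow up to 3 reads, or 1.64 RPM, which is above its 1.12 RPM in CO12 control, so no fold is given. Neither locus reached 20 reads in any library, and no ratio of 2 libraries had an interval that excludes equality. The log2 salt ratio of LOC_Os09g31486 in Trichy 1 minus that in CO12 was 5.29 (0.37 to 10.2). That value rests on the count of 0, a prior count and a normal approximation, so no difference is read from it.

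Per length, the order of the family was similar in the 4 libraries. In RPKM (RPM per kilobase of the deposited gene length), LOC_Os03g16860 was first in CO12 control (10.5), Trichy 1 control (20.8) and Trichy 1 salt (12.2). In CO12 salt LOC_Os05g38530 had 14.7 and LOC_Os03g16860 13.3, a ratio of 1.11 (0.803 to 1.54) that includes equality. The same 4 cytosolic loci filled the first 4 places in each library, and ranked between place 201 and place 420 among all loci by RPKM. The step from the fourth place to the fifth was 4.62-fold (3.14 to 6.95) in CO12 control, 4.06-fold (2.66 to 6.38) in Trichy 1 control and 4.23-fold (2.63 to 7.04) in Trichy 1 salt. In CO12 salt it was 2.37-fold (1.49 to 3.88), because the BiP locus held the fifth place there with 3.59 RPKM. It held the eighth place in CO12 control with 0.484 RPKM, and the sixth in Trichy 1 control (1.74) and Trichy 1 salt (1.26).

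Of the 9 steps between neighbours in that order, the interval excluded equality for 3 in CO12 control and 2 under salt there, and for 4 and 1 in the Trichy 1 libraries. Among the first 4 places in Trichy 1 salt no step did, with 12.2, 10.4, 9.75 and 8.74 RPKM. In Trichy 1 control, by contrast, LOC_Os03g16860 was 1.73-fold (1.38 to 2.17) above LOC_Os05g38530, which was 1.47-fold (1.14 to 1.90) above LOC_Os11g47760. Levels of different loci also depend on how well finger millet reads match each rice locus, which was not tested.

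The loci differed in how many of their reads matched more than 1 place. Over the 4 libraries, 77.6% (73.9% to 81.0%) of the reads of LOC_Os03g16860 were unique, 82.1% of LOC_Os01g62290, 77.5% of LOC_Os11g47760 and 76.3% of LOC_Os05g38530. The other cytosolic locus, LOC_Os03g60620, had 96.6% unique reads (90.3% to 99.3%). The plastid loci together had 98.4% and the mitochondrial loci 100%. Of the 413 reads of the family that were not unique, 409 lay on cytosolic loci. Reads shared between near-identical copies can be placed on any of them, so the values of the 4 abundant cytosolic loci are uncertain to that extent and unique reads are given beside them.

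Shares within the family need no scaling between libraries. The cytosolic loci took 89.2% (86.8% to 91.3%) of the family's reads without salt and 85.5% (81.3% to 89.0%) with salt in CO12. In Trichy 1 they took 90.6% (88.1% to 92.7%) and 91.4% (88.2% to 93.9%). The 4 abundant loci alone took 82.9% to 86.1%. The BiP locus took 1.55% (0.802% to 2.69%), 7.41% (4.90% to 10.7%), 3.61% (2.30% to 5.36%) and 2.96% (1.54% to 5.11%), in the same order. CO12 salt thus gave BiP the largest share of the 4 libraries, and its interval overlaps those of the Trichy 1 libraries but not that of CO12 control. Plastid loci took 7.22%, 5.70%, 5.02% and 4.19%, and mitochondrial loci took 2.06%, 1.42%, 0.784% and 1.48%, with intervals that overlap throughout. These are shares of reads and are not corrected for gene length.

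**Figure D2:**
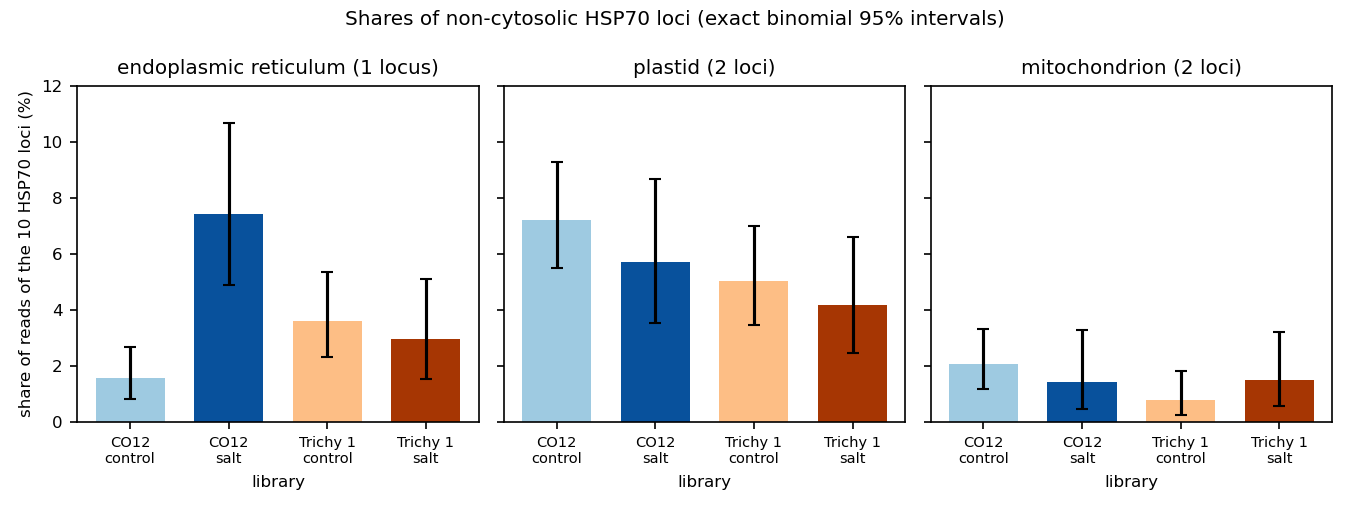
Share of the reads of the 10 HSP70 loci (y axis, percent) that fell on the endoplasmic reticulum, plastid and mitochondrial loci in each library (x axis), with exact binomial 95% intervals. The BiP locus of the endoplasmic reticulum goes from 1.55% in CO12 control to 7.41% in CO12 salt, and from 3.61% to 2.96% in Trichy 1, while the plastid and mitochondrial intervals overlap in all libraries.

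The first comparison asked how these chaperones differed under salt in CO12. The sum of the family was 1.55-fold higher in the salt library (1.36 to 1.76), and 9 of the 10 loci were higher (4 of 10 with TMM or median-of-ratios factors over all loci). Among loci with at least 20 reads in either library, 8 of 8 HSP70 loci were higher with totals, against 43.6% of all 1025. The cytosolic sum was 1.48-fold higher (1.29 to 1.70). The directions of both sums turned when TMM factors were computed over all loci, which put the family at a log2 ratio of -0.13 and the cytosolic loci at -0.19. That scaling moved the median log2 ratio of all 1025 loci with at least 20 reads in either library (the floor used below) from -0.15 to -0.90. Relative to that median, the family was higher by 0.77 to 0.89 on the log2 scale over the 7 scalings and read types used. A scaling shifts the family and the median almost alike, so this narrow range was fixed in advance and is no check of the direction. Only the change to unique reads, at 0.89, could move it further.

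BiP was 7.42-fold higher under salt in CO12 (3.61 to 16.1), and the same call held in unique reads, at 25 against 11 reads (interval 3.56 to 16.9). The odds that a family read fell on BiP and not on the other 9 loci were 5.09 times higher (2.44 to 11.2), a value that no scaling can change. LOC_Os01g62290 was 1.98-fold higher (1.44 to 2.71) and LOC_Os05g38530 1.78-fold higher (1.36 to 2.33). In unique reads these were 1.77-fold (1.23 to 2.53) and 1.58-fold (1.14 to 2.18). Of the 7 scalings and read types, TMM factors over all loci brought both intervals to include equality, and median-of-ratios factors over all loci that of LOC_Os05g38530. The interval of BiP excluded equality under all 7. LOC_Os03g16860 (1.27-fold, 0.951 to 1.67) and LOC_Os11g47760 (1.19-fold, 0.887 to 1.58) had intervals that include equality with totals. In unique reads LOC_Os11g47760 was 1.39-fold higher (1.01 to 1.90). With either factor set over loci at the floor the interval of LOC_Os03g16860 lay above equality, and with TMM factors over all loci those of both loci lay below it. Equality was also within the intervals of LOC_Os03g60620 (1.19-fold), LOC_Os05g23740 (1.27-fold) and LOC_Os12g14070 (1.14-fold), and the plastid sum (1.22-fold, 0.695 to 2.07).

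Of the 8 HSP70 loci with at least 20 reads in either CO12 library, 1 was at least 2-fold higher (BiP) and 0 were lower. Among all 1025 loci at that floor, 10.8% were at least 2-fold higher and 19.1% lower. The counting interval lay above equality for 3 of the 8 and below it for 0, against 19.1% and 21.8% of all loci. With TMM factors over all loci 1 lay above and 2 below, with median-of-ratios factors over all loci 2 lay above, and with unique reads or either factor set over loci at the floor 4 lay above. The shares of all loci by interval were counted with totals only. The median log2 ratio of the 8 was 0.34, against -0.15 for all, and they passed the floor partly through their own reads, so these counts describe the list only.

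The same question in Trichy 1 gave no higher family level. The sum of the family was 0.885 times that of control (0.780 to 1.00), a direction that turned with TMM factors over loci at the floor (log2 ratio 0.00), and 4 of the 10 loci were higher and 6 lower (3 and 7 with either factor set over all loci). In unique reads the ratio was 0.846 (0.736 to 0.972). At the floor, 3 of 7 HSP70 loci were higher with totals, against 39.1% of all 727 loci. Relative to the median log2 ratio of all 727 loci at the floor, which was -0.25, the family stood at 0.06 to 0.07 over the 7 scalings and read types. Here too a scaling shifts both almost alike, so the narrow range is no check of the scalings.

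LOC_Os03g16860 was the only locus of the family whose interval lay below equality with totals in Trichy 1, as was the case for 33% of all 727 loci at the floor. It was 1.71-fold lower under salt (1.32 to 2.22), from 60.9 to 35.7 RPM, and its log2 ratio was -0.77, or -0.52 relative to the median of all loci. The interval lay below equality under all 7 scalings and read types. Its share of the family's reads was 32.0% (28.4% to 35.7%) in control and 21.2% (17.3% to 25.5%) under salt. LOC_Os11g47760 was 1.19-fold higher (0.904 to 1.57) and LOC_Os01g62290 1.15-fold higher (0.842 to 1.56), both with intervals that include equality. With either factor set over loci at the floor, the interval of LOC_Os11g47760 lay above equality. LOC_Os05g38530 had 0.867 times its control level (0.648 to 1.15), BiP 0.726 times (0.329 to 1.52) and the plastid sum 0.739 times (0.385 to 1.37).

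Of the 7 HSP70 loci at the floor in Trichy 1, 0 were at least 2-fold higher and 0 lower, against 11.7% and 17.2% of all 727 loci. The counting interval lay below equality for 1 of the 7 (LOC_Os03g16860) and above it for 0, against 33% and 19.8% of all loci. The median log2 ratio of the 7 was -0.21.

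The ratio of LOC_Os03g16860 to LOC_Os11g47760, a pair singled out after its values were seen, shows where the cytosolic loci parted. There were 0.995 reads of the first for each read of the second in CO12 control (0.810 to 1.22) and 1.06 in CO12 salt (0.748 to 1.502). In Trichy 1 the ratio was 1.73 in control (1.37 to 2.19) and 0.851 under salt (0.631 to 1.15). Unique reads gave 1.03, 0.933, 1.78 and 0.833. Trichy 1 control had the highest ratio, with an interval that overlaps that of CO12 salt and no other.

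**Figure D3:**
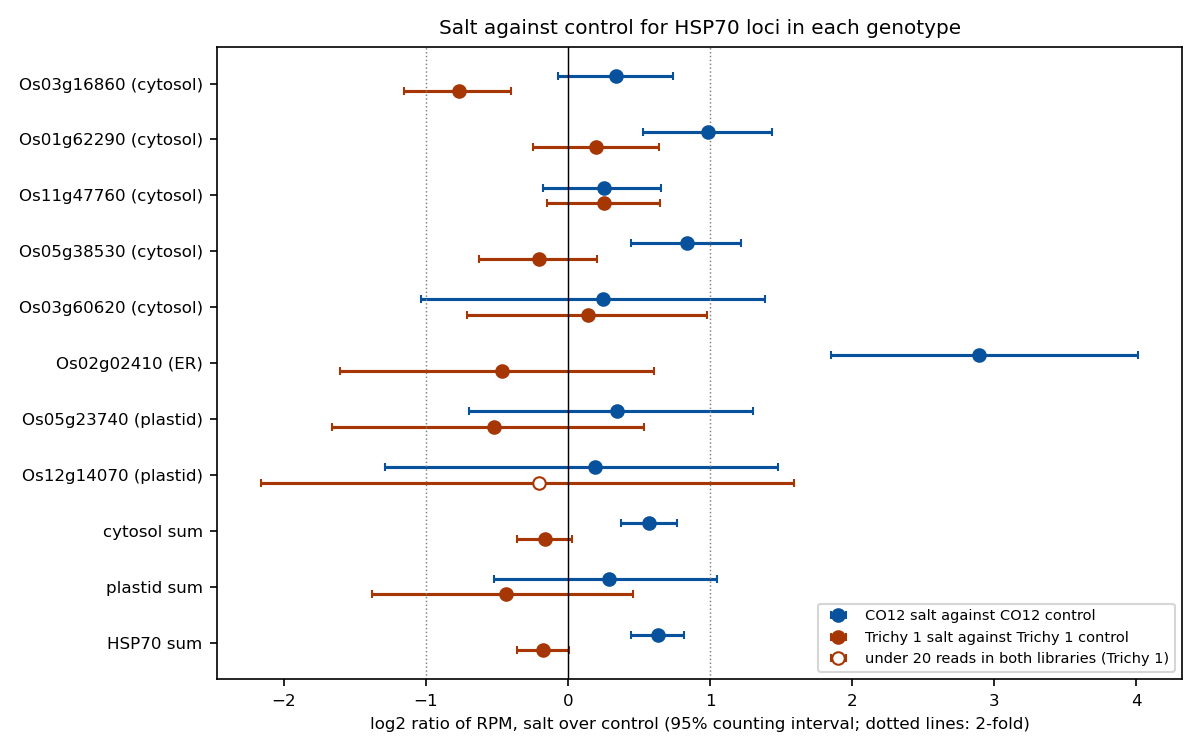
Log2 ratio of RPM, salt over control (x axis), for 8 HSP70 loci and 3 sums (y axis) in CO12 and Trichy 1, with 95% counting intervals of 1 library against 1; dotted lines mark 2-fold and the open symbol marks a locus with under 20 reads in both libraries. BiP (LOC_Os02g02410) is 7.42-fold higher under salt in CO12 and has 0.726 times its control level in Trichy 1, LOC_Os03g16860 is 1.71-fold lower in Trichy 1, and LOC_Os11g47760 has the same ratio, 1.19, in both.

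The salt response of the family sum was then set side by side between the genotypes, with a log2 difference (Trichy 1 minus CO12) of -0.81 (-1.06 to -0.55) with totals. With TMM factors over all loci it was -0.23 (-0.48 to 0.03), an interval that includes 0, and under the other 5 settings it excluded 0. These intervals come from standard errors of the 4 counts by a normal approximation, and the difference was not tested against the spread between plants. The difference was -3.26 (-4.65 to -1.88) for BiP, -1.11 (-1.64 to -0.57) for LOC_Os03g16860, -1.04 (-1.58 to -0.49) for LOC_Os05g38530 and -0.79 (-1.40 to -0.18) for LOC_Os01g62290. It was 0.00 (-0.55 to 0.55) for LOC_Os11g47760 and -0.10 (-1.42 to 1.22) for LOC_Os03g60620. The interval of BiP excluded 0 under all 7 scalings and read types. Those of the cytosolic loci depended on the scaling, and with TMM factors over all loci none of the other 3 stayed below 0 and that of LOC_Os11g47760 lay above it. The plastid locus LOC_Os05g23740 had -0.85 (-2.19 to 0.49), an interval that includes 0. Without BiP, the sum of the other 9 loci had -0.71 (-0.97 to -0.45) with totals and -0.13 (-0.39 to 0.13) with TMM factors over all loci.

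Of the 7 loci at the floor in both genotypes, the response was at least 2-fold lower in Trichy 1 for 3 and higher for 0. Among all 686 such loci, 16.8% were lower and 9.18% higher. BiP is among the 3 and passed the floor only through CO12 salt (26 reads against 12) and Trichy 1 control (23 against 12). Its call thus describes the list only. The counting interval lay below 0 for 4 of the 7 and above 0 for 0, against 24.9% and 11.1% of all loci. The median difference over all loci was -0.20, and relative to it the family stood at -0.61 and BiP at -3.07. By direction alone, 3 of the 10 loci (LOC_Os01g62290, LOC_Os11g47760 and LOC_Os03g60620) were higher under salt in both genotypes, 6 were higher in CO12 and lower in Trichy 1, and 1 was lower in CO12 and higher in Trichy 1. With TMM or median-of-ratios factors over all loci, 1 was higher in both, 4 were lower in both, 3 were higher in CO12 and lower in Trichy 1, and 2 the reverse. These classes of direction were not counted over all loci.

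Between the genotypes without salt, Trichy 1 had the higher HSP70 level, by an amount that depended on the scaling. The family sum was 1.54-fold that of CO12 (1.39 to 1.71) with totals, a log2 ratio of 0.62. The log2 ratio was 0.18 with TMM factors over all loci, and 0.42 with median-of-ratios factors over all loci or totals without the 20 most abundant loci. With totals 7 of the 10 loci were higher (5 with TMM factors over all loci, and 6 with the other 2 of these scalings). At the floor, 7 of 8 HSP70 loci were higher with totals, against 53.9% of all 1034 loci. BiP was 3.59-fold higher (1.72 to 7.92), LOC_Os03g60620 2.09-fold (1.19 to 3.69), LOC_Os03g16860 1.99-fold (1.63 to 2.44), LOC_Os01g62290 1.59-fold (1.20 to 2.11) and LOC_Os05g38530 1.46-fold (1.15 to 1.85). LOC_Os11g47760 (1.15-fold, 0.903 to 1.45), LOC_Os05g23740 (1.28-fold, 0.731 to 2.22) and LOC_Os12g14070 (0.714 times, 0.273 to 1.68) had intervals that include equality. A difference in how well the transcripts of a genotype match the rice locus would also change these ratios, which was not tested.

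Of the 8 loci at the floor without salt, 2 were at least 2-fold higher in Trichy 1 (BiP and LOC_Os03g60620) and 0 lower, against 7.54% and 9.19% of all 1034 loci. LOC_Os03g16860, at 1.99-fold, lay just under that threshold. BiP passed the floor only through Trichy 1 control, at 23 reads against 12, so its call describes the list only. The counting interval lay above equality for 5 of the 8 and below it for 0, against 23.2% and 13.2% of all loci. Under all 7 scalings and read types this held for BiP and LOC_Os03g16860. TMM factors over all loci ended it for the other 3, and totals without the 20 most abundant loci for LOC_Os05g38530. The median log2 ratio was 0.61 over the 8 and 0.08 over all.

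Under salt the genotypes were closer. The family sum in Trichy 1 was 0.880 times that of CO12 (0.761 to 1.02), and 3 of the 10 loci were higher and 7 lower (5 and 5 with either factor set over all loci). At the floor, 2 of 6 HSP70 loci were higher with totals, against 52.4% of all 576 loci. BiP was 2.85-fold lower in Trichy 1 (1.39 to 6.19), the opposite order to that without salt. LOC_Os05g38530 was 1.41-fold lower (1.03 to 1.93), but in unique reads it had 0.840 times the CO12 level (0.581 to 1.22), an interval that includes equality. LOC_Os03g16860 and LOC_Os01g62290 both had 0.922 times the CO12 level, and LOC_Os11g47760 was 1.15-fold higher (0.834 to 1.59). LOC_Os03g60620 remained on the side it had without salt, 1.94-fold higher, with an interval of 0.867 to 4.77.

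Of the 6 loci at the floor under salt, 1 was at least 2-fold lower in Trichy 1 (BiP) and 0 higher, against 5.38% and 7.47% of all 576 loci. BiP passed the floor only through CO12 salt, at 26 reads against 12, so its call describes the list only. The counting interval lay below equality for 2 of the 6 and above it for 0, against 16% and 17.4% of all loci. BiP was below under all 7 scalings and read types, and LOC_Os05g38530 under 4. Each library enters a salt comparison and a genotype comparison, so the 4 comparisons are not separate observations.

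A model of genotype plus salt over the 4 libraries, scaled to total reads and added after seeing the data, leaves 1 residual degree of freedom and takes the difference of response between genotypes as error. In edgeR's quasi-likelihood test with Benjamini-Hochberg adjustment over 1066 loci, 0 of the 8 HSP70 loci tested passed an adjusted p of 0.05 for salt, against 9.57% of all loci. BiP had the smallest adjusted p of the 8, 0.105 (unadjusted p = 0.017), with a log2 fold of 1.22 averaged over genotypes in which it went opposite ways. For genotype 0 of the 8 passed, against 0.375% of all loci, and LOC_Os03g60620 had a log2 fold of 1.01, higher in Trichy 1 both with and without salt, with an adjusted p of 0.701 (unadjusted p = 0.036). At an unadjusted p under 0.05 in the same test there was 1 of the 8 for salt, against 268 of all 1066 loci. For genotype there was 1 of the 8, against 68 of all 1066.

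**Figure D4:**
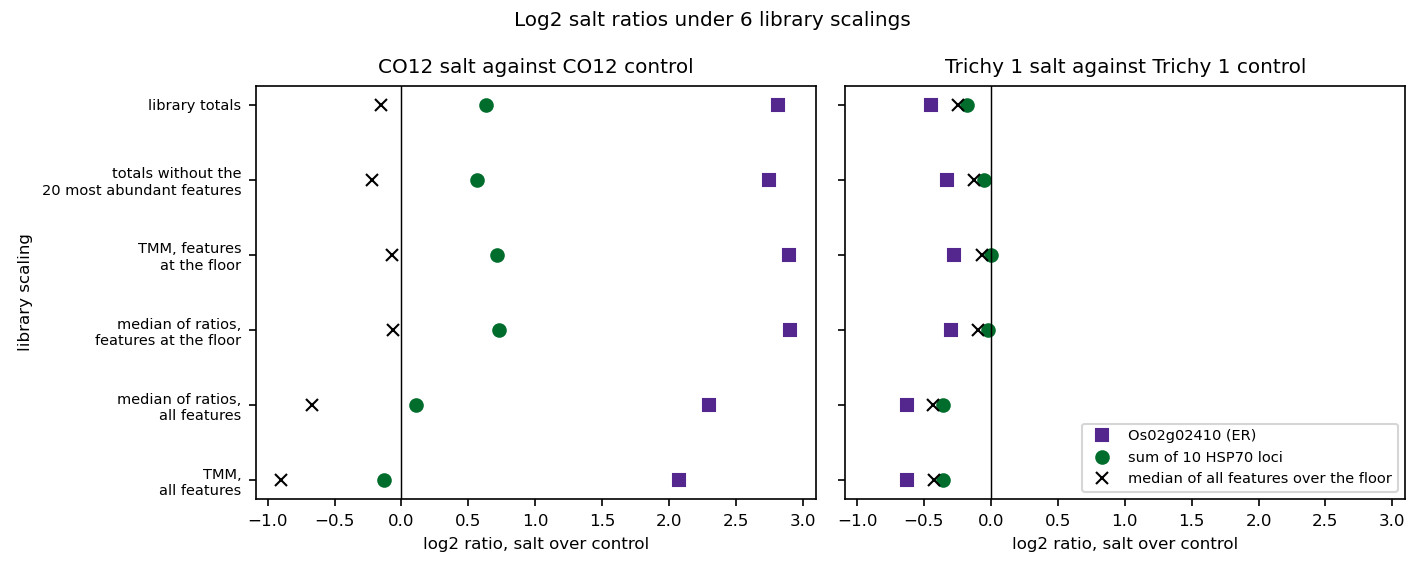
Log2 ratio of salt over control (x axis) under 6 library scalings (y axis) in CO12 (left) and Trichy 1 (right), for the BiP locus (squares), the sum of the 10 HSP70 loci (circles) and the median of all loci with at least 20 reads in either library (crosses). In CO12 the HSP70 sum runs from -0.13 with TMM factors over all loci to 0.73, and BiP runs from 2.07 to 2.91. Each scaling shifts the sum and the median almost alike, so their distance is no check of the scalings. With totals that distance is 0.78 in CO12 and 0.07 in Trichy 1.

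Among 571 other loci with at least 100 reads over the 4 libraries, the pattern most like that of the cytosolic sum was that of LOC_Os09g08464 (chromosome 9, 482 bp), with 23.4 and 35.5 RPM in CO12 and 38.5 and 33.2 in Trichy 1. The root mean square difference of its centred log2 RPM from that of the cytosolic sum was 0.025 over the 4 libraries, and 15.9% of its reads were unique. The next was LOC_Os07g44450 (chromosome 7, 1076 bp), with 6.70, 9.83, 9.86 and 9.14 RPM, a difference of 0.036 and 100% unique reads. What they encode is not in the tables, and 4 libraries are too few for likeness to single out a locus.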

How the data were processed

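RNA of finger millet leaves was sequenced in 4 libraries after ribosomal RNA depletion and RNase III fragmentation on an Ion Proton instrument, per the labels' protocols. The authors deposited 1 table per library with total and unique gene read counts per locus, not normalized, and RPKM, per the file headers. The deposited RPKM values equalled RPM per kilobase of deposited gene length, with a largest relative difference of 5.7e-08. The sources used here do not give the aligner, the counter, their settings or the genome build, nor whether the gene length includes introns or counting used strand. Identifiers are of the rice MSU form, so chromosome numbers are those of rice.

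Total gene reads scaled to library totals were compared, with unique reads beside them. Log2 ratios carry a prior of 0.5 count scaled to depth; fold values do not. Counts of loci 2-fold apart use loci with at least 20 reads in either library. Intervals (95%) are exact Poisson for levels, Clopper-Pearson for shares and ratios, and exact conditional for odds ratios. A count of 0 allows 3 reads. With 1 library per group, comparisons of 2 libraries were not tested. A genotype plus salt model (edgeR quasi-likelihood, 1 residual degree of freedom) was added after seeing the data. All members were named, with the 2 other loci nearest in pattern to the cytosolic sum. The members and lists were chosen with earlier results of these data known. The ratio calculation was tested on simulated counts with Poisson error only. They held no spread between plants, so that test checks the arithmetic and not the comparisons. Alternatives were unique reads, TMM (edgeR 4.0.16) and median-of-ratios (DESeq2 1.42.0) factors, totals without the 20 most abundant loci, priors and floors. Calculations used Python 3.11.15 with scipy 1.17.1.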

Additional observations from a re-analysis of the deposited data

Results flagged for a closer look

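For the values below, the ratios of salt over control lay on opposite sides of equality in the genotypes. The counting interval of each difference excluded 0, with libraries scaled to totals (log2, Trichy 1 minus CO12). Such an interval shows unequal responses, not opposite ones. The BiP locus LOC_Os02g02410, the single locus of the endoplasmic reticulum, had -3.26. LOC_Os03g16860 had -1.11 and LOC_Os05g38530 had -1.04, both cytosolic. The cytosolic sum had -0.73 and the sum of all 10 loci had -0.81. For each of them the interval of the ratio in 1 genotype included equality with totals. In Trichy 1 this held for BiP (0.329 to 1.52), LOC_Os05g38530 (0.648 to 1.15), the cytosolic sum (0.781 to 1.02) and the HSP70 sum (0.780 to 1.00). In CO12 it held for LOC_Os03g16860 (0.951 to 1.67). With 1 library per group none of these differences was tested against the spread between plants, and the sums hold the reads of the single loci. With TMM factors over all loci the interval of the difference excluded 0 for BiP alone among them, and the HSP70 sum (-0.13 in CO12, -0.36 in Trichy 1), the cytosolic sum (-0.19, -0.34) and LOC_Os03g16860 (-0.42, -0.95) were lower under salt in both genotypes. With median-of-ratios factors over all loci LOC_Os03g16860 was also lower in both (-0.18, -0.95). With TMM factors over loci at the floor both sums were higher in both, at 0.00 and 0.02 in Trichy 1.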

How the results depend on the processing

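No paired analysis was possible because the groups share only 1 replicate number, apart from the model of genotype plus salt. That model pairs salt and control within genotype and called 0 of 8 loci for salt in edgeR's quasi-likelihood test, against 9.57% of all loci. At an unadjusted p under 0.05 in that test there was 1 of the 8, against 268 of all 1066 loci. Factors over loci at the floor were chosen after seeing the data, and the other settings were planned. With TMM factors over all loci, the log2 ratio of the HSP70 sum was -0.13 for salt in CO12 (cytosolic sum -0.19), 0.18 for the genotypes without salt and -0.23 for the difference of response (-0.48 to 0.03, which includes 0). With median-of-ratios factors over all loci it was 0.11, 0.42 and -0.46, and -0.36 for salt in Trichy 1. The median-of-ratios factors over all loci rest on the 4929 loci with reads in all 4 libraries. The median over these loci of the mean count per library was 4 reads. With totals without the 20 most abundant loci, the log2 ratio of the HSP70 sum was 0.42 between the genotypes without salt. The cause of these moves was not tested beyond the shift of the median of all loci. HSP70 loci at least 2-fold apart for salt in CO12 numbered 1 as reported, 2 with either factors over loci at the floor, 2 with no floor and 0 with a floor of 100 reads. Of all 1025 loci, 30% were that far apart as reported, and 29.6% and 29.5% with TMM and median-of-ratios factors over loci at the floor. For salt in Trichy 1 the HSP70 loci that far apart numbered 0 as reported and 1 with no floor, against 28.9% of all 727 loci as reported. Between the genotypes without salt they numbered 2 as reported, 0 with a floor of 100 reads, and 1 with each of the 4 factor sets, a prior of 2.5 counts, or totals without the 20 most abundant loci. The share of all 1034 loci was 16.7% as reported, 17.1% to 22% with the 4 factor sets and 18.3% without the 20 most abundant. Under salt the HSP70 loci that far apart numbered 1 as reported, 2 with either factors over all loci, 3 with no floor and 0 with a floor of 100 reads. The share of all 576 loci was 12.8% as reported, and 13.7% and 13.9% with TMM and median-of-ratios factors over all loci. For the difference of response the HSP70 loci numbered 3 as reported, 1 with either factors over all loci or without the 20 most abundant loci, and 5 with no floor. The share of all 686 loci was 25.9% as reported, 28.3% with TMM and 22.2% with median-of-ratios factors over all loci, and 22.3% without the 20 most abundant. Shares of all loci were not counted with no floor, a floor of 100 reads or a prior of 2.5 counts. Of the values of the HSP70 sum and counts of HSP70 loci, the other 52 of 80 stayed within their counting interval or within 1.5 times the count. So did 468 of 490 values of single loci and compartments, and 21 single values moved. Unique reads moved none. The BiP locus rests on 12 to 26 reads per library and the mitochondrial loci on 0 to 9.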
